A study of Homo sapiens and Mus musculus with 19 samples.

Results

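The mitochondrial genome encodes 37 genes in mouse and 37 in human, namely 13 proteins, 2 ribosomal RNAs (rRNAs) and 22 transfer RNAs (tRNAs), and their reads in chromatin-associated RNA (caRNA) are described here. The genes were chosen by position, as every gene that GENCODE places on the mitochondrial chromosome (symbols mt-* in mouse and MT-* in human), and they were 37 of 54446 mouse genes and 37 of 58721 human genes in the count tables. No measured value entered that rule. caRNA was the RNA that stayed with the chromatin pellet after cells were lysed in NP-40, nuclei were spun through sucrose and chromatin was washed in a glycerol and urea buffer. Mouse embryonic stem cells (mESC), grown in 2i and LIF and passaged on gelatin to clear feeder cells, had been transfected with a control siRNA (siControl) or with an siRNA against Nsun2 (siNsun2), an RNA cytosine methyltransferase, with 3 libraries in each group. K562, an established human chronic myeloid leukaemia line, was either TET2 WT or TET2 KO, TET2 being a dioxygenase of 5-methylcytosine, and carried a lentiviral control shRNA (shControl) or an shRNA against the methyl-binding-domain protein gene MBD6 (shMBD6), with 3 libraries in each of the 4 groups. The shRNA lines were selected with puromycin, and TET2 WT and KO K562 cells had both been given by another laboratory. WT K562 cells were also obtained from a cell bank, and which WT stock gave these libraries was not stated in the sources used here. The study describes its genome-wide data in general as coming from biological replicates, while the labels do not tie single libraries to separate cultures, and p-values measure the spread between these libraries.

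Mitochondrial DNA is a small circle that is transcribed from both strands into long precursors. The tRNAs lie between most of the other genes, and cutting at the tRNAs releases the rRNAs and the messenger RNAs, all of which are used inside the organelle. The heavy-strand precursor carries the rRNAs and most of the messenger RNAs. Of the 37 genes, 9 are read from the other, light-strand precursor: MT-ND6 and 8 tRNA genes. The encoded proteins are core subunits of the respiratory chain, with ND subunits in complex I, cytochrome b in complex III, CO subunits in complex IV and ATP6 and ATP8 in complex V, whereas complex II is encoded in the nucleus alone. Because the transcripts reside in mitochondria, their reads in a chromatin preparation can come from organelles carried along in the pellet or from nuclear copies of mitochondrial DNA. The contribution of either was not tested.

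Per library, reads assigned to genes numbered 58078323 to 66832780 in mESC and 52158403 to 102070223 in K562. Of these, 739436 to 791534 fell on mitochondrial genes in mESC, but only 16765 to 49730 in K562. rRNA had been depleted before sequencing, so that the levels of the rRNA genes are what depletion left behind. Of 12 embryonic stem cell markers, 11 averaged at least 1 CPM (counts per 1000000) in siControl, with Sox2 at 0 in every library, and their summed level was 2019 to 2059 CPM in siControl and 1576 to 1617 in siNsun2. Of 10 feeder fibroblast markers, 8 reached that level, at 45.2 to 49.3 and 43.5 to 46.8 CPM in sum. Of 12 erythroid-leukaemia markers, 9 reached it in K562, whereas the globin genes HBG2 and HBE1 were at 0. Whether Sox2 and these globin genes lacked reads, or had reads that the counter set aside, was not tested. The erythroid-leukaemia markers summed to 1132 to 1169 CPM in TET2 WT shControl and 681.9 to 704.0 in TET2 WT shMBD6. Their sum was 572.5 to 584.9 in TET2 KO shControl and 805.2 to 821.6 in the libraries labelled TET2 KO shMBD6, and its part in the results was not tested. Nsun2 was at 125.8 to 132.7 CPM in siControl and 98.8 to 105.8 in siNsun2, a log2 change of -0.34 (SE 0.03, edgeR, adjusted p = 2.67e-16). MBD6 fell from 38.6 to 43.3 CPM in TET2 WT shControl to 25.7 to 30.9 in TET2 WT shMBD6, but was at 29.4 to 30.8 in TET2 KO shControl and 30.6 to 38.3 in TET2 KO shMBD6. The last pair did not show the decrease that its label names (log2 change 0.19, edgeR adjusted p = 0.0574), and for that reason its second group is given throughout as the libraries labelled TET2 KO shMBD6. TET2 was at 118.4 to 123.5 CPM in TET2 WT shControl and 126.8 to 131.2 in TET2 KO shControl (log2 change 0.09, edgeR adjusted p = 0.0735), and at 117.0 to 124.9 in TET2 WT shMBD6 and 91.6 to 100.9 in the libraries labelled TET2 KO shMBD6 (-0.36, edgeR adjusted p = 3.90e-09). Neither pair overlapped, with KO higher in the first and lower in the second, and the lesion in the KO cells was not given in the sources used here.

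Some mitochondrial genes have nuclear copies, and a read that matched several places equally well was set aside by the counter. The first 120 aligned bases are shown for 2 genes per species, 1 with a nearly identical nuclear copy and 1 with a diverged copy. Both kinds of copy span nearly the whole gene. Bases that differ between gene and copy are in capitals. The mouse pair is mt-Co2 (ENSMUSG00000064354.1, mm10, chrM:7013-7132, plus strand), whose start was identical in the pseudogene Gm28661 (chr1:24615446-24615565, minus strand), and mt-Cytb (ENSMUSG00000064370.1, chrM:14146-14265, plus strand), whose copy Gm11410 (chr4:80003990-80004109, plus strand) differed at 7 of 120 bases.
mt-Co2: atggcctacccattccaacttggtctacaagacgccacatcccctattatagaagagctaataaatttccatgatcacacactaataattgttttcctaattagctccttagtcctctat
Gm28661: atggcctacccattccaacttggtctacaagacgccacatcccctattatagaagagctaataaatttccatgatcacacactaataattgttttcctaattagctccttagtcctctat
mt-Cytb: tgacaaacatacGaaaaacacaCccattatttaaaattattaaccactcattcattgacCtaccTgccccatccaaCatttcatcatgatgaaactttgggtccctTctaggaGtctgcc
Gm11410: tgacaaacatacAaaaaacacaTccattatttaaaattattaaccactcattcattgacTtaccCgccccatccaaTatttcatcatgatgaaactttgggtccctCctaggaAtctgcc
The human pair is MT-CO2 (ENSG00000198712.1, hg38, chrM:7586-7705, plus strand), with a copy on chromosome 1 (chr1:632757-632876, plus strand) that differed at 2 bases, and MT-CYB (ENSG00000198727.2, chrM:14747-14866, plus strand), with a copy on chromosome 5 (chr5:94569540-94569659, plus strand) that differed at 13 bases.
MT-CO2: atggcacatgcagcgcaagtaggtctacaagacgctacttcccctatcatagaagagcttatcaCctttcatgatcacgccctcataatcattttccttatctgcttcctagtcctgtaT
chromosome 1 copy of MT-CO2: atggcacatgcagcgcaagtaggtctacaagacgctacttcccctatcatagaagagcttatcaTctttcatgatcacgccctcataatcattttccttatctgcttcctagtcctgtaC
MT-CYB: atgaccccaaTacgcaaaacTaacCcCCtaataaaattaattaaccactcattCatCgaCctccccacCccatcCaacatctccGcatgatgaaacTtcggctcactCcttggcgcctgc
chromosome 5 copy of MT-CYB: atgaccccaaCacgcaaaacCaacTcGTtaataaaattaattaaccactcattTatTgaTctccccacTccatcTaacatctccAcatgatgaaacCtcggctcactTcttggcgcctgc

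In mouse, 8 protein genes held a stretch of at least 100 bases that was identical to an annotated nuclear pseudogene transcript. Among these 8 genes the stretch was shortest in mt-Nd2 (129 bases) and longest in mt-Nd4, with 479 bases in mt-Co1 and 783 in mt-Co3. Of these genes, 6 had their best match in a collinear copy on chromosome 1 (chr1:24611535-24616197, minus strand, mm10), which matches mitochondrial positions 6381 to 11042, starts within mt-Co1 and holds 11 genes whole: mt-Ts1, mt-Td, mt-Co2, mt-Tk, mt-Atp8, mt-Atp6, mt-Co3, mt-Tg, mt-Nd3, mt-Tr and mt-Nd4l. These genes had 0 to 87 counts in any mESC library. In K562, 7 human genes held an identical stretch of that length, the longest being 266 bases in MT-ND2. Annotated nuclear pseudogenes of human mitochondrial protein and rRNA genes were summed, with those on chromosome 8 left out. Of the 387 included, 176 drew counts, and their sum was 1.26% to 2.68% of the mitochondrial counts. MTATP6P1, a copy of MT-ATP6, had 71, 159 and 97 counts in TET2 WT shControl, 365, 285 and 373 in TET2 WT shMBD6, 654, 327 and 404 in TET2 KO shControl and 68, 135 and 127 in the libraries labelled TET2 KO shMBD6. MTND2P28, a copy of MT-ND2, had 42, 28 and 62 counts, 184, 120 and 166, 237, 214 and 140, and 17, 21 and 24 in the same order. Both pseudogenes were thus higher in TET2 WT shMBD6 and TET2 KO shControl, with no overlap with the other groups. Whether reads shared between a gene and its copies moved any value given here was not tested.

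The share of all gene counts that fell on mitochondrial genes was compared first. In mESC the share was 1.17%, 1.20% and 1.21% in siControl and 1.31%, 1.27% and 1.29% in siNsun2. The siNsun2 libraries all lay above the siControl libraries, by a ratio of means of 1.08, but reads outside annotated genes were more frequent with siNsun2 too (28.9% to 29.9% of read records, against 19.6% to 20.2%). With all read records as the total, the ratio was 0.945, so that the direction depended on the denominator. In K562 the share was 0.0238%, 0.0220% and 0.0229% in TET2 WT shControl, the lowest group. It was 0.0405%, 0.0475% and 0.0499% in TET2 WT shMBD6, 0.0540%, 0.0518% and 0.0483% in TET2 KO shControl, and 0.0257%, 0.0273% and 0.0233% in the libraries labelled TET2 KO shMBD6. The groups did not overlap in any of the 4 K562 comparisons. The ratio was 2.24 for TET2 KO over WT under shControl, 2.01 for shMBD6 over shControl in TET2 WT, 0.495 for shMBD6 over shControl in TET2 KO, where MBD6 itself was not lower, and 0.552 for TET2 KO over WT under shMBD6. Each of the 5 comparisons had a two-sided exact permutation p of 0.1, which is the smallest that 3 libraries against 3 allow, and an adjusted p of 0.1. A lower share of counts can reflect fewer mitochondria carried into the pellet or less RNA in each, which cannot be told apart.

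**Figure D1:**
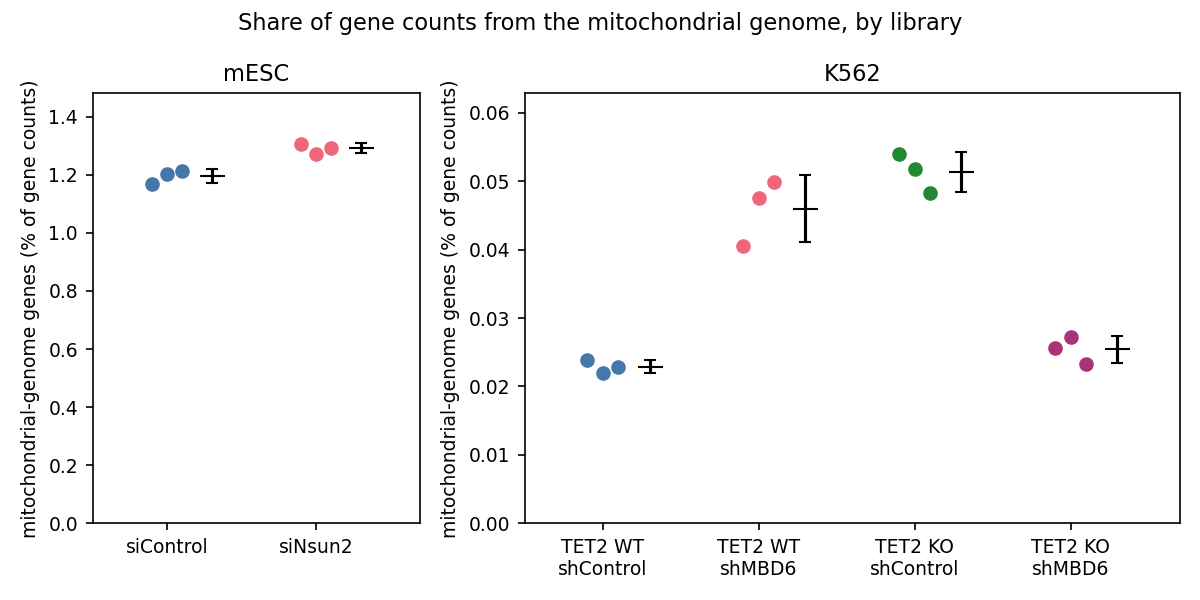
Percentage of all gene counts assigned to the 37 mitochondrial genes in each library, with mESC and K562 on separate axes. Coloured points are libraries, and the black mark beside them is the group mean with SD (n = 3). The siNsun2 libraries lay between 1.27% and 1.31%, above siControl, and in K562 the TET2 WT shMBD6 and TET2 KO shControl libraries lay between 0.0405% and 0.0540%, above the other 2 groups at 0.0220% to 0.0273%.

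Levels per gene in K562 were compared per kilobase in TET2 WT shControl. MT-CO1, the catalytic subunit of complex IV, averaged 35.9 CPM per kb, followed by MT-CYB at 31.2 and MT-CO3 at 30.6. The rest was lower, with MT-ND6 at 18.1, MT-ND1 at 14.5, MT-ND5 at 13.8, MT-ND4 at 13.1, MT-ND2 at 11 and MT-CO2 at 10.4 CPM per kb. The 16S rRNA gene MT-RNR2 averaged 5.79 CPM per kb after depletion. In TET2 KO shControl the order differed, with MT-CO1 at 72.6 followed by MT-ND4 at 56.6 and MT-CO2 at 51.2, whereas MT-CYB was at 33.9 CPM per kb. Of the 37 human genes, 32 passed the filter on low counts (13 protein, 2 rRNA and 17 tRNA genes), and MT-TG, MT-TR, MT-TH, MT-TS2 and MT-TL2 did not, with 0 to 19 counts per library. Each gene was tested in 1 model over all 26023 expressed genes and 12 libraries (edgeR quasi-likelihood, TMM scaling, Benjamini-Hochberg adjusted over all genes), and values per library are TMM-scaled CPM. The 4 K562 comparisons share libraries pairwise and are not independent of each other.

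TET2 KO was compared with TET2 WT under shControl, a pair in which MBD6 was lower in TET2 KO as well. Most messenger RNAs and both rRNAs of mitochondria were higher in TET2 KO shControl, by 1.41-fold (MT-CO3) to 6.03-fold (MT-ATP8), whereas cytochrome b was not. Of the 32 genes tested, 15 were called higher and 0 lower, against 23.5% higher and 22.3% lower of all genes tested. The higher genes were 12 of 13 protein genes, both rRNA genes and 1 tRNA gene, and the median log2 change was 1.11 against -0.05 over all genes. MT-RNR1, the 12S rRNA of the small mitochondrial ribosomal subunit, was at 1.88, 1.34 and 1.17 CPM in TET2 WT shControl and 9.41, 8.32 and 6.89 in TET2 KO shControl (log2 change 2.49, SE 0.22, adjusted p = 2.27e-11). MT-CO2, which carries the copper centre that accepts electrons from cytochrome c, was at 6.96, 7.12 and 7.25 CPM and then 32.6, 36.1 and 36.3 (log2 change 2.30, SE 0.10, adjusted p = 1.92e-19). The lowest library of TET2 KO shControl was in both cases several times above the highest of TET2 WT shControl. MT-ND4, a proton-pumping subunit of complex I, was at 20.4, 17.1 and 16.7 CPM and then 78.9, 79.0 and 76.0 (log2 change 2.11, adjusted p = 2.51e-08). Similar changes were found for MT-RNR2 (2.29), MT-ND2 (2.17), MT-ATP6 (2.25), MT-ATP8 (2.59) and MT-ND4L (2.58). MT-ATP8 and MT-ATP6 share 46 bases on the same strand and MT-ND4L and MT-ND4 share 7. Reads from the shared bases may not have been assigned to either gene, as the overlap setting of the counting was not given in the sources used here.

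The remaining complex I genes and MT-CO1 moved less. MT-ND1 had a log2 change of 1.58, MT-ND3 of 1.39, MT-ND5 of 1.15, MT-ND6 of 1.03 and MT-CO1 of 1.02, all called. MT-ND3 rested on few reads, and without TET2 WT shControl replicate 3 its value was 1.13 with an adjusted p of 0.0689 (edgeR). MT-CO3 was at 24.1, 23.0 and 24.9 CPM in TET2 WT shControl and 35.6, 31.7 and 34.1 in TET2 KO shControl (log2 change 0.49, SE 0.08, edgeR adjusted p = 4.57e-06). MT-CYB was at 33.9, 34.6 and 38.3 CPM and then 41.1, 38.8 and 36.2, with overlapping groups and a log2 change of 0.12 (SE 0.07, edgeR adjusted p = 0.164).

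With shMBD6 in TET2 WT cells, mitochondrial genes were called higher as well. Both rRNAs and 11 of 13 messenger RNAs were higher in TET2 WT shMBD6, by 1.41-fold (MT-CO1) to 4.26-fold (MT-ATP8), while MT-CYB and MT-CO3 did not pass the test. Of 32 genes, 17 were called higher and 0 lower, against 17.7% and 24.7% of all genes, and the median log2 change was 1.06 against 0.10. MT-RNR1 was at 5.49, 4.71 and 6.82 CPM in TET2 WT shMBD6 (log2 change 1.96 from the TET2 WT shControl values above, SE 0.22, edgeR adjusted p = 6.00e-09). MT-CO2 was at 19.8, 26.4 and 24.9 CPM (log2 change 1.73, SE 0.10, edgeR adjusted p = 1.03e-15), and MT-ND4 at 39.2, 59.0 and 59.0 (1.53). In both genes replicate 1 was the lowest of its group, yet above every TET2 WT shControl library. MT-ATP8 changed by 2.09, MT-RNR2 by 1.97, MT-ND3 by 1.88, MT-ND4L by 1.86, MT-ATP6 by 1.79, MT-ND2 by 1.51, MT-ND1 by 1.17, MT-ND6 by 0.93, MT-ND5 by 0.89 and MT-CO1 by 0.49 on the log2 scale, all called. MT-CO3 was at 21.8, 28.5 and 26.6 CPM (log2 change 0.09, edgeR adjusted p = 0.398). MT-CYB was at 28.5, 34.4 and 33.5 CPM (log2 change -0.15, edgeR adjusted p = 0.0895), and it was called lower when TET2 WT shMBD6 replicate 2 was left out (-0.21, adjusted p = 0.0383).

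In the TET2 KO line the libraries labelled shMBD6 went the other way, although MBD6 was not lower in them than in TET2 KO shControl. Of 32 genes, 18 were called lower and 0 higher, against 20.6% and 15.7% of all genes, and the median log2 change was -1.63 against -0.07. The lower genes were 12 of 13 protein genes, both rRNA genes and 4 tRNA genes. MT-RNR1 was at 1.90, 2.65 and 1.54 CPM (log2 change -2.01, SE 0.22, edgeR adjusted p = 3.65e-09). MT-CO2 was at 8.75, 8.52 and 7.46 CPM (log2 change -2.09, SE 0.10, edgeR adjusted p = 1.02e-17). MT-ND4 was at 26.9, 26.5 and 23.3 CPM (-1.61). In each of these 3 genes the libraries labelled TET2 KO shMBD6 all lay below every TET2 KO shControl library. MT-ND6, the 1 protein encoded on the light strand, was at 9.37, 8.85 and 10.3 CPM in TET2 WT shControl, 16.8, 18.5 and 19.2 in TET2 WT shMBD6, 19.7, 20.0 and 18.6 in TET2 KO shControl and 4.99, 5.32 and 4.52 in the libraries labelled TET2 KO shMBD6. Its log2 change of -1.98 (SE 0.11, edgeR adjusted p = 2.52e-16) left these libraries below every library of the other groups, TET2 WT shControl included. MT-ND4L changed by -2.32, MT-ND2 by -2.23, MT-ATP8 by -2.17, MT-RNR2 by -2.16, MT-ATP6 by -1.87, MT-ND3 by -1.65, MT-ND1 by -1.55 and MT-CO1 by -0.95.

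The calls of MT-ND5 and MT-CO3 were weak, and MT-CYB was not called. MT-ND5 was at 57.5, 56.8 and 51.9 CPM in TET2 KO shControl and 38.9, 43.9 and 37.6 in the libraries labelled TET2 KO shMBD6 (log2 change -0.47, edgeR adjusted p = 0.0462). MT-CO3 was at 29.9, 30.5 and 27.7 CPM in the latter (-0.20, edgeR adjusted p = 0.0455). The MT-ND5 call was lost without any 1 of the 6 libraries compared, with adjusted p-values from 0.0714 without TET2 KO shMBD6 replicate 2 to 0.157 without TET2 KO shMBD6 replicate 3, and the MT-CO3 call was lost without TET2 KO shControl replicate 1 (adjusted p = 0.174) or 3 (0.103) or TET2 KO shMBD6 replicate 3 (0.153). Scaling by total gene counts also ended both calls, at -0.34 for MT-ND5 (adjusted p = 0.114) and -0.08 for MT-CO3 (0.486). MT-CYB was at 39.0, 40.9 and 39.0 CPM, inside the TET2 KO shControl range, with a log2 change of 0.03 (edgeR adjusted p = 0.763).

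The difference between the responses to shMBD6 in the TET2 KO and WT lines was tested as an interaction in the same model. Of 32 genes, 21 had a lower response in TET2 KO and 0 a higher one, against 25.5% and 23.9% of all genes, and the median difference was -2.71 against -0.19. The difference was -3.98 for MT-RNR1 (SE 0.31, adjusted p = 1.05e-12), -3.82 for MT-CO2 (SE 0.14, adjusted p = 4.24e-21) and -4.25 for MT-ATP8 (SE 0.33, adjusted p = 6.20e-13), and 0.18 for MT-CYB (SE 0.10, edgeR adjusted p = 0.132). For the share of gene counts, shMBD6 libraries were 0.0231 percentage points above shControl in TET2 WT and 0.0260 below it in TET2 KO.

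TET2 KO was compared with TET2 WT under shMBD6 as well, again with the MBD6 level of the KO libraries in view. Of 32 genes, 19 were called lower and 2 higher, against 28.5% and 30.1% of all genes, with a median log2 change of -1.50 against -0.03. Both rRNAs were lower (-1.48 for MT-RNR1 and -1.84 for MT-RNR2), as were MT-ND3 (-2.14), MT-ND6 (-1.88), MT-ATP8 (-1.66), MT-ND4L (-1.60), MT-ND2 (-1.58), MT-CO2 (-1.52), MT-ATP6 (-1.41), MT-ND1 (-1.13), MT-ND4 (-1.03) and MT-CO1 (-0.42). MT-ND5 changed by -0.21 with overlapping groups (edgeR adjusted p = 0.295), and it was called without TET2 WT shMBD6 replicate 1 (-0.41, adjusted p = 1.19e-05). MT-CYB was higher, at 39.0 to 40.9 CPM against 28.5 to 34.4 (log2 change 0.31, SE 0.07, edgeR adjusted p = 0.00047), but under scaling by total gene counts it was 0.16 with an adjusted p of 0.0582. MT-CO3 was called higher at 0.20 (edgeR adjusted p = 0.0350) although the groups overlapped, and the call was lost under scaling by total gene counts (0.05, adjusted p = 0.604) and without TET2 WT shMBD6 replicate 1 (0.09, adjusted p = 0.341) or TET2 KO shMBD6 replicate 1 (0.19, adjusted p = 0.0511) or 2 (0.18, adjusted p = 0.0914).

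**Figure D2:**
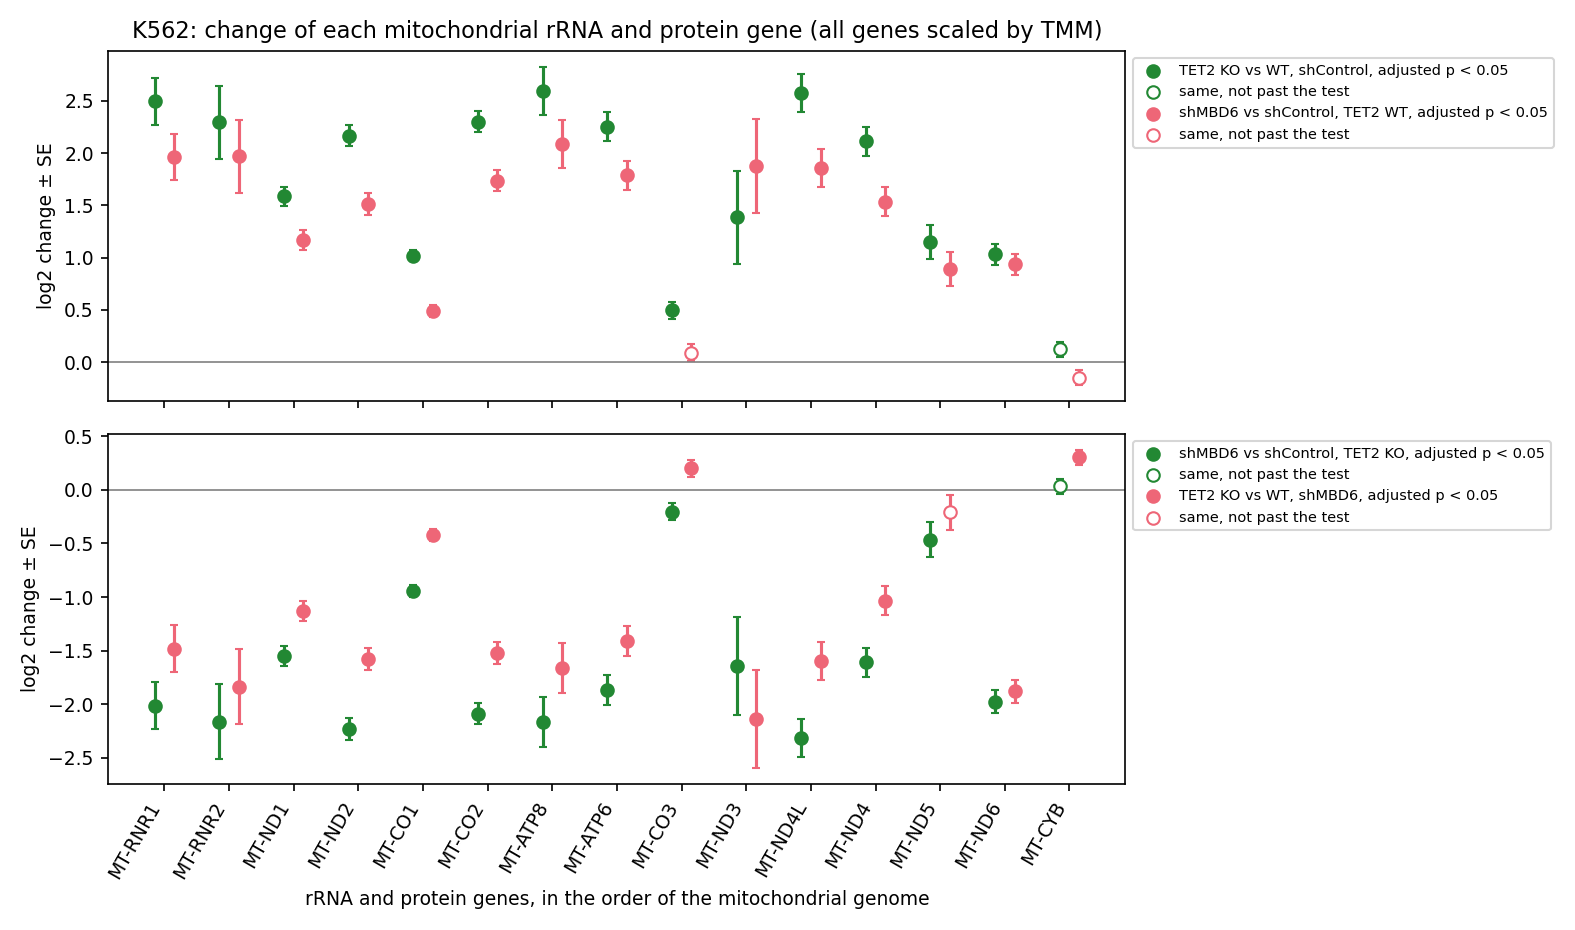
Log2 change (vertical axis, with 1 SE as error bars) of the 13 protein and 2 rRNA genes in the 4 K562 comparisons, on the scale of all genes, with genes on the horizontal axis in order along the mitochondrial genome. Filled points were called at an adjusted p under 0.05 and open points were not. MT-CYB and MT-CO3 stayed between -0.20 and 0.49 in every comparison, whereas MT-CO2 ranged from -2.09 to 2.30.

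The make-up of the mitochondrial reads was examined next, as each gene's share of the mitochondrial total. On this scale a rise of some genes lowers the share of the others by construction. MT-CYB, the only mitochondrially encoded subunit of complex III, made up 14.6%, 16.0% and 17.1% of mitochondrial counts in TET2 WT shControl, 7.75%, 7.88% and 7.31% in TET2 WT shMBD6, 6.95%, 6.76% and 6.76% in TET2 KO shControl and 15.1%, 14.8% and 16.4% in the libraries labelled TET2 KO shMBD6. Every library of the first and last group lay well above every library of the other groups. MT-CO3 showed the same arrangement, at 10.4% to 11.1%, 5.80% to 6.52%, 5.53% to 6.36% and 11.1% to 11.6%. MT-CO2 was arranged the other way, at 3.00% to 3.30%, 5.39% to 6.04%, 5.51% to 6.77% and 3.09% to 3.40%. MT-ND6 followed neither pattern, at 4.04% to 4.62%, 4.20% to 4.59%, 3.32% to 3.48% and 1.90% to 1.94%.

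Grouped by complex, the complex I genes made up 35.9% ± 0.863, 44.8% ± 2.71, 45.5% ± 1.14 and 38.2% ± 0.722 (SD, n = 3) of mitochondrial counts in TET2 WT shControl, TET2 WT shMBD6, TET2 KO shControl and the libraries labelled TET2 KO shMBD6. Complex V genes made up 2.70% ± 0.296, 5.18% ± 0.738, 5.38% ± 0.165 and 3.08% ± 0.256, and the rRNA genes 4.66% ± 1.41, 9.86% ± 3.12, 9.10% ± 2.21 and 4.57% ± 0.878. Complex IV genes took the opposite course, at 38.6% ± 0.453, 30.2% ± 0.769, 31.9% ± 1.32 and 37.3% ± 0.907. Groups did not overlap for any of these 4 classes, or for complex III, in any of the 4 comparisons, with a two-sided exact permutation p of 0.1 for each, the smallest possible, and 0.125 after adjustment over the 40 composition shares tested.

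Relative to the mitochondrial total, the edgeR test called 15 of 32 genes in TET2 KO against WT under shControl, 8 higher and 7 lower (all genes 4.07% and 69.8%, since the scale itself moved). MT-ND4L and MT-ATP8 (1.24 each), MT-RNR1 (1.15), MT-CO2 (0.96), MT-RNR2 (0.94), MT-ATP6 (0.91), MT-ND2 (0.83) and MT-ND4 (0.77) were higher. MT-CYB (-1.22, SE 0.12, adjusted p = 7.50e-25), MT-CO3 (-0.85), MT-CO1 (-0.32) and 4 light-strand tRNA genes were lower. For shMBD6 in TET2 WT the test called 8 higher and 3 lower (all genes 2.89% and 49.4%), with MT-CYB at -1.06, MT-CO3 at -0.82 and MT-CO1 at -0.41 the lower ones. MT-RNR2 was among the higher (1.09), but not without TET2 WT shMBD6 replicate 1 (0.77, adjusted p = 0.0716). For the libraries labelled TET2 KO shMBD6 against TET2 KO shControl it called 5 higher and 10 lower (58.6% and 2.34%), led by MT-CYB at 1.18, MT-CO3 at 0.94 and MT-ND5 at 0.68 on the higher side and MT-ND4L at -1.18, MT-ND2 at -1.10 and MT-ATP8 at -1.04 on the lower. For TET2 KO against WT under shMBD6 the counts were 4 and 13 (50.4% and 17%), with MT-CYB at 1.01, MT-CO3 at 0.91, MT-ND5 at 0.51 and MT-CO1 at 0.29 the higher ones and MT-ND6 at -1.18 among the lower. MT-ND4 (-0.31) and MT-ND3 (-1.39) were lower in that comparison too, but without TET2 WT shMBD6 replicate 2 they were at -0.24 (adjusted p = 0.104) and -1.10 (adjusted p = 0.108), and MT-ND3 was also lost without TET2 KO shMBD6 replicate 2 (-1.16, adjusted p = 0.0544). In the interaction 5 genes were higher and 11 lower (58.5% and 3.05%), with MT-CYB at 2.24 and MT-CO3 at 1.76 against MT-ATP8 at -2.20 and MT-ND4L at -2.13.

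**Figure D3:**
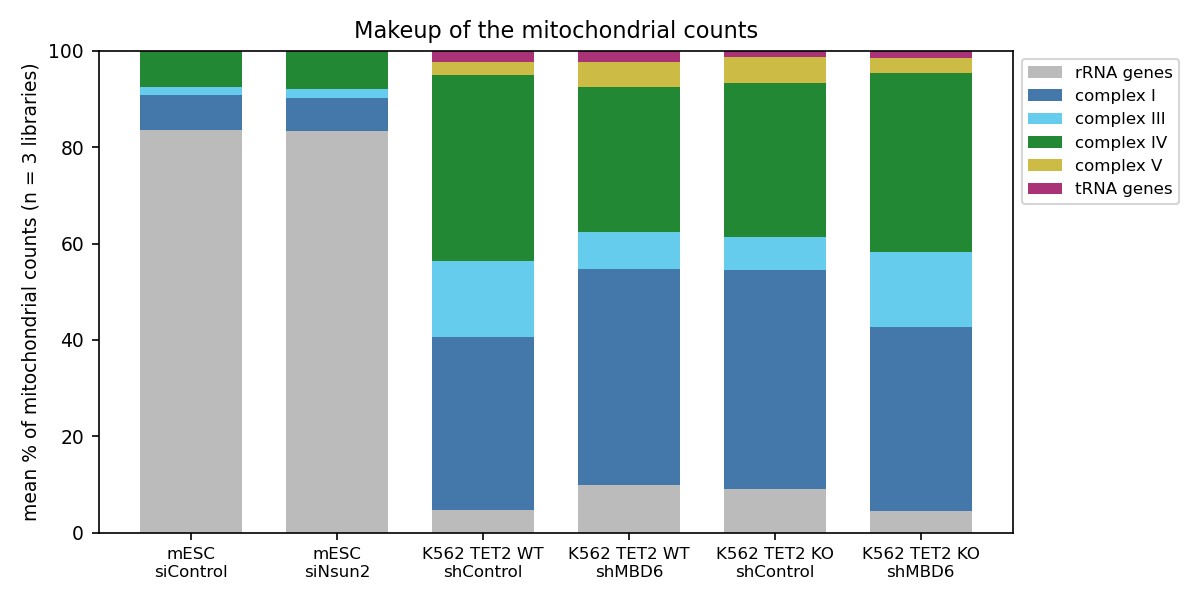
Share of mitochondrial counts taken by rRNA genes, tRNA genes and the genes of complexes I, III, IV and V on the vertical axis, in percent, as stacked means of 3 libraries for each of the 6 groups on the horizontal axis. The complex III gene MT-CYB took 14.6% to 17.1% per library in TET2 WT shControl and in the libraries labelled TET2 KO shMBD6, and 6.76% to 7.88% in the other 2 K562 groups.

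The tRNA genes were sparsely covered in K562, with at most 146 counts per library. Reads over a tRNA gene can come from precursors as well as from the mature tRNA, and mature tRNAs are short and heavily modified, so that they are poorly captured by this kind of library. All 22 together took 2.25% ± 0.167, 2.28% ± 0.163, 1.28% ± 0.189 and 1.45% ± 0.0937 (SD, n = 3) of mitochondrial counts in TET2 WT shControl, TET2 WT shMBD6, TET2 KO shControl and the libraries labelled TET2 KO shMBD6. The share was thus lower in both TET2 KO groups, with no overlap between genotypes (exact permutation p = 0.1, adjusted 0.125, under shControl and under shMBD6), and the groups overlapped between shMBD6 and shControl within each genotype (exact permutation p = 0.7 in TET2 WT and 0.3 in TET2 KO). The 9 light-strand genes took 5.82% ± 0.321, 5.85% ± 0.229, 4.09% ± 0.0359 and 2.88% ± 0.107 in the same order. The 4 light-strand tRNA genes that passed the test of a lower share in TET2 KO shControl are shown from hg38, with the anticodon, as written in DNA, in capitals.
MT-TQ (chrM:4329-4400, minus strand, glutamine): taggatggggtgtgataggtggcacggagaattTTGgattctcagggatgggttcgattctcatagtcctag
MT-TN (chrM:5657-5729, minus strand, asparagine): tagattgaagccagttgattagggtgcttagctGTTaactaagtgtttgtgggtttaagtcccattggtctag
MT-TC (chrM:5761-5826, minus strand, cysteine): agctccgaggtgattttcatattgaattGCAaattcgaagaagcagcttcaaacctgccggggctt
MT-TS1 (chrM:7446-7514, minus strand, serine): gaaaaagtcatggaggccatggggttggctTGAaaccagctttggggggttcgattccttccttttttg

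Relative to the mitochondrial total these 4 were the tRNA genes called lower in TET2 KO than WT under shControl. MT-TQ had 63, 48 and 45 counts in TET2 WT shControl and 110, 97 and 100 in TET2 WT shMBD6. It had 23, 20 and 34 in TET2 KO shControl and 19, 22 and 29 in the libraries labelled TET2 KO shMBD6. These counts, not scaled for depth, did not overlap between genotypes. In TMM-scaled CPM, MT-TQ was at 0.448 in replicate 3 of both TET2 WT shControl and TET2 KO shControl. Its log2 change relative to the total was -2.04 (SE 0.57, edgeR adjusted p = 0.000561). MT-TN had 18, 52 and 27, 83, 59 and 73, 8, 16 and 10, and 12, 32 and 35 counts (-2.38, edgeR adjusted p = 0.00123). MT-TS1 had 48, 129 and 71 counts in TET2 WT shControl and 86, 35 and 60 in TET2 KO shControl, where counts overlapped but the mitochondrial total was larger (-1.46, edgeR adjusted p = 0.00393). Without TET2 WT shControl replicate 2 it was at -1.08 with an adjusted p of 0.0771. MT-TC had 33, 20 and 18 counts and then 8, 1 and 10 (-3.00, edgeR adjusted p = 0.0139), and the call was lost without TET2 WT shControl replicate 1 (adjusted p = 0.0711) or TET2 KO shControl replicate 2 (0.0669). A nuclear copy on chromosome 1 was identical to MT-TQ, MT-TN and MT-TS1 over their whole length, so that a read wholly inside these genes matches both places.

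On the scale of all genes MT-TP, the proline tRNA next to the control region, had the highest count of any tRNA gene in a library. It had 39, 101 and 94 counts in TET2 WT shControl, 124, 92 and 120 in TET2 WT shMBD6, 146, 69 and 105 in TET2 KO shControl and 30, 33 and 25 in the libraries labelled TET2 KO shMBD6. It was lower in these last libraries than in TET2 KO shControl (log2 change -1.79, SE 0.39, edgeR adjusted p = 0.000415) and than in TET2 WT shMBD6 (-1.88, SE 0.39, adjusted p = 0.000139). MT-TQ was higher with shMBD6 in TET2 WT (1.27, edgeR adjusted p = 0.0298) and lower in TET2 KO than WT under shMBD6 (-2.12, edgeR adjusted p = 0.000473), and the second call was kept in every fit that left out 1 library. Without TET2 WT shControl replicate 2 or 3, or TET2 WT shMBD6 replicate 2 or 3, the first had an adjusted p of 0.0818 to 0.135. MT-TL1, the leucine tRNA, was lower in the libraries labelled TET2 KO shMBD6, with 5, 7 and 3 counts against 69, 23 and 41 in TET2 KO shControl (log2 change -3.02, edgeR adjusted p = 0.0068).

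The other tRNA calls rested on few counts and depended on single libraries. MT-TV, the valine tRNA between the rRNA genes, had 3, 1 and 0 counts in TET2 WT shControl, 21, 11 and 12 in TET2 WT shMBD6, 16, 7 and 23 in TET2 KO shControl and 0, 1 and 4 in the libraries labelled TET2 KO shMBD6, and was called higher in the 2 middle groups than in TET2 WT shControl (edgeR adjusted p = 0.0334 and 0.0404). These calls ended, at an adjusted p of 0.0614 to 0.152, without TET2 KO shControl replicate 1 or 3, TET2 WT shControl replicate 2 or 3, or any 1 TET2 WT shMBD6 library. MT-TI and MT-TN were called higher with shMBD6 in TET2 WT (1.89 and 1.52), and either call ended without any 1 TET2 WT shMBD6 library or without TET2 WT shControl replicate 1, at an adjusted p of 0.0556 to 0.129. Further losses came without TET2 WT shControl replicate 2 for MT-TI (0.0700) and without replicate 3 for MT-TN (0.134). MT-TF and MT-TE were called lower in the libraries labelled TET2 KO shMBD6 than in TET2 KO shControl (-1.56 and -2.62). MT-TF lost the call without TET2 KO shControl replicate 1 or 2 or TET2 KO shMBD6 replicate 1 or 3 (adjusted p = 0.0547 to 0.159), and MT-TE without TET2 KO shControl replicate 1 or 2 or TET2 KO shMBD6 replicate 1 or 2 (0.0669 to 0.169). In TET2 KO against WT under shMBD6, MT-TL1 (-2.48), MT-TI (-1.95), MT-TM (-2.93), MT-TA (-1.44) and MT-TN (-1.42) were called lower, each losing the call without at least 1 library. TET2 KO shMBD6 replicate 3 decided MT-TL1 (adjusted p = 0.0512), MT-TI (0.0606) and MT-TA (0.117), replicate 2 MT-TM (0.0726) and MT-TA (0.112), and replicate 1 MT-TN (0.127). TET2 WT shMBD6 replicate 3 decided MT-TL1 (0.0521), MT-TA (0.0730) and MT-TN (0.109), replicate 1 MT-TM (0.0839), MT-TA (0.118) and MT-TN (0.0745), and replicate 2 MT-TM (0.0600), MT-TA (0.12) and MT-TN (0.107). MT-TW, MT-TY, MT-TD, MT-TK and MT-TT were called in no comparison on either scale, with 0 to 38 counts per library.

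In mESC the rRNAs were the largest part of the mitochondrial reads by far, at 83.5% ± 0.0995 (SD, n = 3) in siControl and 83.4% ± 0.12 in siNsun2. Per kilobase, mt-Rnr1 averaged 4623 CPM and mt-Rnr2 3930 CPM in siControl. They were followed by mt-Co1 at 605.6, mt-Nd6 at 291.2, mt-Nd1 at 290.4, mt-Nd5 at 191.6 and mt-Cytb at 185.1 CPM per kb. Next were mt-Tp at 138.9, mt-Nd2 at 71.8, the light-strand tRNA gene mt-Ty at 51.6 and mt-Nd4 at 49.3 CPM per kb. The light-strand genes mt-Nd6 and mt-Tp were thus among the 8 highest genes per kilobase. Of the 37 genes, 25 passed the filter (11 protein, 2 rRNA and 12 tRNA genes). The genes left out were mt-Atp8, mt-Nd3 and 10 tRNA genes, with 0 to 20 counts, of which mt-Tk and mt-Tg were at 0 in all 6 libraries. Of these 12 genes, 7 lie in the part of the genome copied to chromosome 1. For the genes at 0, the limit that a count of 0 allows is 3 counts, or 0.0477 to 0.0505 CPM, for counting error only.

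Nsun2 depletion was compared with siControl on the scale of all genes. The 12S rRNA and 5 complex I messenger RNAs were slightly lower in siNsun2, at 0.838 of the siControl level in mt-Nd2 and nearer to it in the others, while the 16S rRNA and the messenger RNAs of complexes III and IV were not called. Of 25 genes tested, 6 were called lower and 0 higher, against 24.3% lower and 25.8% higher of all 27603 genes. The number called lower was thus near the share over all genes. The median log2 change was -0.07 against 0.14. The median was -0.12 without siControl replicate 2, -0.11 without siControl replicate 3, -0.14 without siNsun2 replicate 1 and -0.04 without siNsun2 replicate 2. mt-Rnr1 was at 4254, 4505 and 4485 CPM in siControl and 4024, 3879 and 3980 in siNsun2 (log2 change -0.16, SE 0.02, edgeR adjusted p = 1.10e-13). mt-Nd2 was at 71.5, 75.5 and 76.5 CPM and then 66.7, 58.0 and 62.5 (-0.25, SE 0.04, edgeR adjusted p = 6.18e-08). mt-Nd6 was at 148.4, 147.8 and 157.2 CPM and then 137.0, 136.2 and 130.6 (-0.17, SE 0.03, edgeR adjusted p = 9.58e-07). In these 3 genes no siNsun2 library reached the lowest siControl library. mt-Nd1 (-0.13, edgeR adjusted p = 8.09e-06), mt-Nd5 (-0.13, adjusted p = 5.48e-06) and mt-Nd4 (-0.11, adjusted p = 0.0136) were lower too, and mt-Nd4 lost the call without siControl replicate 3 (-0.09, adjusted p = 0.1) or siNsun2 replicate 3 (-0.09, adjusted p = 0.0830).

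Another scaling turned these small changes. When library size was the total of gene counts, without TMM, the median over all genes moved from 0.14 to 0.32, and mt-Rnr1 was at 0.02, mt-Nd1 at 0.05, mt-Nd4 at 0.07, mt-Nd5 at 0.06, mt-Nd6 at 0.01 and mt-Nd2 at -0.07. On that scale 6 of the 25 genes were called higher and 0 lower, against 37.1% and 9.4% of all genes. Relative to the median of all genes, mt-Rnr1 was at -0.29, mt-Nd2 at -0.39, mt-Nd6 at -0.30 and mt-Co1 at -0.13 under either scaling. mt-Rnr2 (6151, 6172 and 6329 CPM, then 6244, 5999 and 6217), mt-Co1 (922.3, 930.3 and 954.2, then 946.0, 925.8 and 946.0) and mt-Cytb (204.0, 216.6 and 214.7, then 222.6, 211.2 and 212.2) overlapped between the groups under TMM, with log2 changes of -0.02, 0.01 and 0.02.

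Within the mitochondrial reads the changes did not depend on the scaling of the other genes. Relative to the mitochondrial total, siNsun2 had 4 higher and 5 lower calls among 25 genes (all genes 28.8% and 18.3%). mt-Cytb (0.09, SE 0.03, edgeR adjusted p = 0.00253), mt-Co1 (0.07, adjusted p = 0.000677), mt-Rnr2 (0.05, adjusted p = 0.000615) and mt-Tp (0.28, adjusted p = 0.0159) were higher. mt-Nd2 (-0.19, edgeR adjusted p = 9.88e-05), mt-Nd6 (-0.10, adjusted p = 0.00616), mt-Rnr1 (-0.09, adjusted p = 6.27e-07), mt-Nd1 (-0.06, adjusted p = 0.0460) and mt-Nd5 (-0.06, adjusted p = 0.0425) were lower. The last pair was lost without most single libraries: mt-Nd1 without siControl replicate 2 or 3 or any 1 siNsun2 library (adjusted p = 0.0693 to 0.148), and mt-Nd5 without siControl replicate 1 or 3 or siNsun2 replicate 2 or 3 (0.0580 to 0.157). mt-Nd6 was lost without siNsun2 replicate 3 (-0.07, adjusted p = 0.0984) and mt-Tp without siNsun2 replicate 1 (0.22, adjusted p = 0.112). By complex, complex I genes made up 7.24% ± 0.0911 (SD, n = 3) of mitochondrial counts in siControl and 6.88% ± 0.0769 in siNsun2, complex III 1.66% ± 0.0301 and 1.78% ± 0.0350, and complex IV 7.37% ± 0.0595 and 7.76% ± 0.0631. The groups did not overlap for these 3 classes (exact permutation p = 0.1, adjusted 0.125). mt-Tp, with at most 574 counts in siControl and 743, 662 and 622 in siNsun2, had the most counts of the 22 tRNA genes. Among the other 21, the counts ran from 0 to 231, and none was called on either scale.

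**Figure D4:**
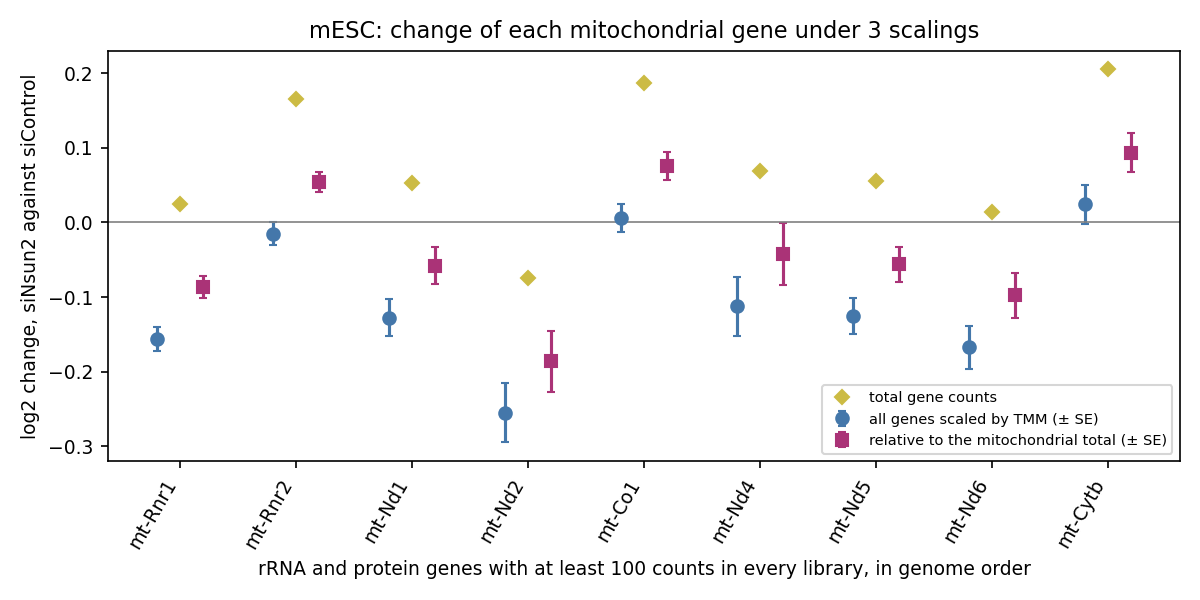
Log2 change in siNsun2 against siControl for the rRNA and protein genes with at least 100 counts in every mESC library, on the scale of all genes (TMM, circles with 1 SE), relative to the mitochondrial total (squares with 1 SE) and by total gene counts (diamonds, no error drawn). In that order mt-Nd2 lay at -0.25, -0.19 and -0.07 and mt-Rnr1 at -0.16, -0.09 and 0.02.

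The nuclear-encoded partners of these genes were described from hand-written lists, as counts of genes called. In TET2 WT shMBD6, where the mitochondrial genes were higher, nuclear genes for the same complexes were lower. Of the tested nuclear complex I genes, 0 of 33 were higher and 19 lower than in TET2 WT shControl (median log2 change -0.30), of complex III 0 and 6 of 8, of complex IV 0 and 7 of 10 and of complex V 0 and 10 of 14, where 17.7% of all genes were higher and 24.7% lower. NDUFS6, an accessory subunit of complex I, averaged 73.1 CPM ± 3.03 (SD, n = 3) in TET2 WT shControl and 39.2 ± 2.65 in TET2 WT shMBD6 (log2 change -0.90, edgeR adjusted p = 1.82e-14), and CYC1, the cytochrome c1 of complex III, 17.8 ± 1.43 and 9.41 ± 0.782 (-0.91, edgeR adjusted p = 1.24e-09). Cytosolic ribosomal protein genes were lower as well, at 2 higher and 51 lower of 72 (median -0.37). In TET2 KO against WT under shControl the split was 2 higher and 11 lower of 33 for complex I (median -0.18) and 15 and 30 of 72 for cytosolic ribosomal proteins, where 23.5% of all genes were higher and 22.3% lower. Scaled by total gene counts these splits became 0 and 20 for complex I and 5 and 43 for cytosolic ribosomal proteins, with 17.4% and 31.8% of all genes. In the libraries labelled TET2 KO shMBD6 against TET2 KO shControl it was 8 higher and 3 lower for complex I (median 0.11) and 20 and 15 for cytosolic ribosomal proteins, where 15.7% of all genes were higher and 20.6% lower. In TET2 KO against WT under shMBD6 it was 13 and 1 (median 0.16) and 47 and 5, with 30.1% of all genes higher and 28.5% lower. Scaling by total gene counts changed these splits too. In the labelled libraries against TET2 KO shControl the medians were then 0.24 for complex I and for cytosolic ribosomal proteins, against 0.04 over all genes. In TET2 KO against WT under shMBD6 they were 0.0087 and 0.14, against -0.18 over all genes.

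Genes that replicate mitochondrial DNA and that transcribe and process its RNA were counted in the same way. With shMBD6 in TET2 WT, 17.7% of all genes were higher and 24.7% lower. In TET2 KO against WT the shares were 23.5% and 22.3% under shControl and 30.1% and 28.5% under shMBD6. For the libraries labelled TET2 KO shMBD6 against TET2 KO shControl they were 15.7% and 20.6%. For mtDNA replication and transcription, 10 of 11 genes were lower with shMBD6 in TET2 WT (median -0.47), 3 were higher and 6 lower in TET2 KO against WT under shControl, 8 higher and 1 lower in the libraries labelled TET2 KO shMBD6 against TET2 KO shControl (median 0.34), and 11 of 11 higher in TET2 KO against WT under shMBD6 (median 0.62). TFAM, which packages mitochondrial DNA and starts its transcription, averaged 31.1 ± 1.73, 22.6 ± 0.767, 25.4 ± 0.779 and 32.6 ± 0.389 CPM (SD, n = 3) in TET2 WT shControl, TET2 WT shMBD6, TET2 KO shControl and the libraries labelled TET2 KO shMBD6. POLRMT, the mitochondrial RNA polymerase, averaged 57.5 ± 5.06, 47.0 ± 2.56, 49.6 ± 2.60 and 62.5 ± 7.0 CPM in the same order. Both were thus lowest in the 2 groups in which mitochondrial reads were highest. For RNA processing and stability, 15 of 17 genes were lower and 0 higher with shMBD6 in TET2 WT (median -0.49). In TET2 KO against WT, 1 was higher and 8 lower under shControl, and 16 were higher and 0 lower under shMBD6 (median 0.61). In the libraries labelled TET2 KO shMBD6 against TET2 KO shControl, 9 were higher and 0 lower. ELAC2, which cuts the 3′ ends of tRNAs out of the precursors, was at 65.0 ± 0.662 CPM in TET2 WT shControl and 35.3 ± 0.285 in TET2 WT shMBD6 (log2 change -0.88, edgeR adjusted p = 2.02e-15), and at 40.7 ± 1.99 in TET2 KO shControl and 61.0 ± 1.05 in the libraries labelled TET2 KO shMBD6. LRPPRC, which stabilises mitochondrial messenger RNAs, averaged 400.1 ± 14.3, 326.8 ± 8.61, 423.5 ± 1.66 and 423.3 ± 5.99 CPM in that order.

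Of the m5C methyltransferases, NSUN4, which acts on mitochondrial 12S rRNA, averaged 75.9 ± 2.31, 56.2 ± 4.00, 63.8 ± 1.23 and 78.5 ± 3.80 CPM (SD, n = 3) in TET2 WT shControl, TET2 WT shMBD6, TET2 KO shControl and the libraries labelled TET2 KO shMBD6. NSUN3, which modifies the mitochondrial methionine tRNA, was at 40.2 ± 1.31, 31.2 ± 0.956, 39.5 ± 1.81 and 38.7 ± 1.77 CPM, and NSUN2 at 117.6 ± 4.69, 87.1 ± 2.36, 111.8 ± 1.10 and 127.6 ± 4.02. For mitochondrial ribosomal proteins, 3 genes were higher and 49 lower of 69 with shMBD6 in TET2 WT (median -0.41), 7 and 28 in TET2 KO against WT under shControl, 27 and 3 in the libraries labelled TET2 KO shMBD6 against TET2 KO shControl, and 46 and 1 in TET2 KO against WT under shMBD6. Over all genes the shares higher and lower were 17.7% and 24.7%, 23.5% and 22.3%, 15.7% and 20.6%, and 30.1% and 28.5% in that order. Complex II has no mitochondrially encoded subunit, and 0 of its 3 tested genes were higher and 3 lower with shMBD6 in TET2 WT.

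In mESC the nuclear lists were lower in siNsun2, relative to a median over all genes of 0.14. Complex I had 0 higher and 14 lower of 35 genes (median -0.12), complex V 0 and 10 of 17, mtDNA replication and transcription 0 and 6 of 10, RNA modification 0 and 9 of 16 and mitochondrial ribosomal proteins 0 and 31 of 74, against 24.3% of all genes lower. The cytosolic ribosomal proteins had 0 higher and 61 lower of 72 (median -0.22), and abundant cytoplasmic messenger RNAs 0 and 15 of 16 (median -0.35). Most of these calls were lost when libraries were scaled by total gene counts, with 1 higher and 2 lower for complex I, 1 and 5 for complex V, 0 and 1 for mtDNA replication and transcription, 1 and 3 for RNA modification, 1 and 5 for mitochondrial ribosomal proteins, 6 and 22 for cytosolic ribosomal proteins and 1 and 9 for cytoplasmic messenger RNAs, and 37.1% and 9.4% of all genes. The medians of complexes I, III, IV and V and of mitochondrial ribosomal proteins then turned positive. Nsun4 averaged 24.2 CPM ± 1.60 (SD, n = 3) in siControl and 16.2 ± 0.813 in siNsun2 (log2 change -0.58, edgeR adjusted p = 1.06e-11), Tfam 32.2 ± 0.0303 and 23.6 ± 0.886 (-0.45, edgeR adjusted p = 1.32e-10) and Lrpprc 344.6 ± 10.8 and 262.3 ± 3.28 (-0.39, edgeR adjusted p = 6.54e-26). Polrmt, at 21.7 ± 1.25 and 20.7 ± 1.33 CPM, and Nsun3, at 17.4 ± 0.608 and 18.8 ± 1.33, were not called.

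**Figure D5:**
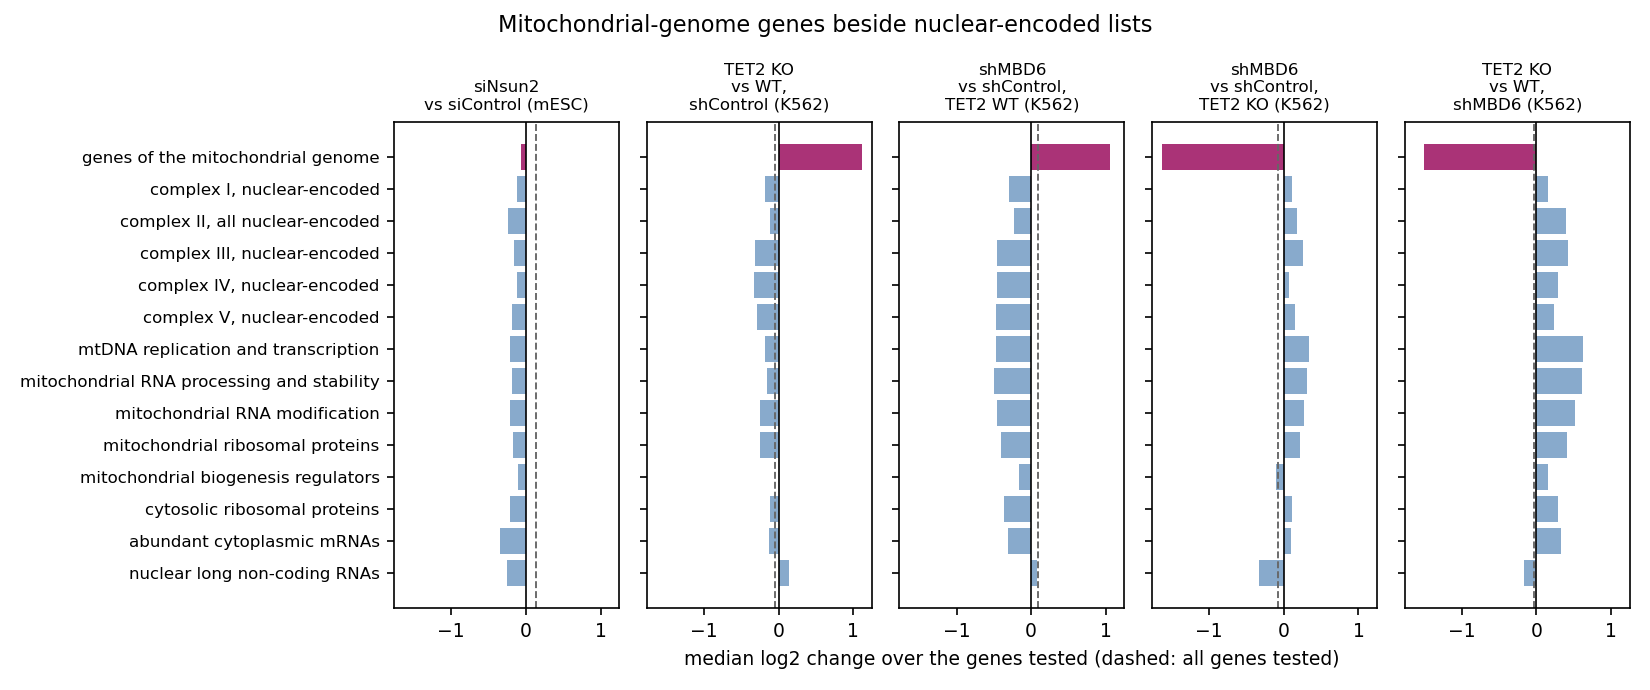
Median log2 change (horizontal axis, bars) of mitochondrially encoded genes and of nuclear gene lists in each of the 5 comparisons, with the median over all genes tested as a dashed line. In TET2 WT shMBD6 the mitochondrial genes had a median of 1.06 and nuclear complex I genes of -0.30, and in TET2 KO against WT under shMBD6 the medians were -1.50 and 0.16.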

How the data were processed

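Genes were taken from the deposited tables, which hold raw read counts per gene with 1 table per library. Per the study's methods and the submitters' processing notes, the authors trimmed reads with Trimmomatic 0.39, aligned them with HISAT2 2.2.1 to mm10 or hg38 and counted them with HTSeq 0.12.4. The strand setting of the counting was not given in the sources used here. Reads with several alignments were set aside by the counter, at 4.77% to 4.83% of read records in mESC and 10.1% to 11.2% in K562, which can lower the counts of genes with nuclear copies. The tables held 0 ERCC lines, so values are relative to other genes. The decision to describe these genes, and the choice of lists and tests, were made with earlier results of these data known, although the rule for the genes uses position alone.

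Genes were tested with the edgeR 4.0.16 quasi-likelihood test (limma 3.58.1, R 4.3.3), with TMM scaling, filterByExpr by group at a minimum count of 10, robust dispersions and a two-sided adjusted p under 0.05 as the call. The mESC model held 6 libraries and the K562 model 12. A second fit took the summed mitochondrial counts as library size. Shares were compared by exact permutation. DESeq2 1.42.0, other scalings and filters, and leaving out each library were alternatives. The model was tested on simulated data. Replicate pairs differed beyond sampling noise (chi-square per degree of freedom 3.92 to 14.9), and each library was counted once. Lines naming no gene (13.1% to 29.9% reads outside genes) entered no library size. Values were described for all members, with those of other genes from at most 2 called genes per list. Nuclear copies were sought with BLAST at 85% identity or more in hg38 and, for mouse, in annotated transcripts alone. Intervals and limits cover counting error only.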

Additional observations from a re-analysis of the deposited data

Results flagged for a closer look

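The response to shMBD6 differed between the TET2 KO and TET2 WT lines by the interaction test (edgeR, adjusted p under 0.05) in 21 mitochondrial genes on the scale of all genes. MBD6 itself was not lower in the libraries labelled TET2 KO shMBD6 than in TET2 KO shControl. The difference, as the log2 response in TET2 KO less that in TET2 WT, was -3.98 for MT-RNR1 and -4.13 for MT-RNR2, the rRNA genes. Among complex I genes it was -2.72 for MT-ND1, -3.75 for MT-ND2, -3.52 for MT-ND3, -3.15 for MT-ND4, -4.17 for MT-ND4L, -1.35 for MT-ND5 and -2.91 for MT-ND6. It was -1.44 for MT-CO1, -3.82 for MT-CO2 and -0.29 for MT-CO3 in complex IV, and -3.66 for MT-ATP6 and -4.25 for MT-ATP8 in complex V. The MT-CO3 difference was lost without TET2 WT shControl replicate 2 (-0.26, adjusted p = 0.0788), TET2 WT shMBD6 replicate 2 (-0.21, 0.148) or 3 (-0.26, 0.0807), TET2 KO shControl replicate 1 (-0.25, 0.0933) or 3 (-0.28, 0.0614), or TET2 KO shMBD6 replicate 3 (-0.25, 0.0815).

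Among tRNA genes the difference was -3.96 for MT-TL1, -2.37 for MT-TF, -6.59 for MT-TV, -3.55 for MT-TI, -4.01 for MT-TM, -3.54 for MT-TE and -2.70 for MT-TP. MT-TV had 0 to 4 counts in 2 of its groups, so its value depends on the count added before taking logs. MT-TF was lost without TET2 KO shControl replicate 1 (-2.10, adjusted p = 0.0618). MT-TE and MT-TM were each lost without any 1 of 6 libraries. For MT-TE these were TET2 WT shControl replicate 2 or 3, TET2 WT shMBD6 replicate 1 or 2, TET2 KO shControl replicate 2 and TET2 KO shMBD6 replicate 1 (adjusted p = 0.0521 to 0.109). For MT-TM they were TET2 WT shControl replicate 2 or 3, TET2 WT shMBD6 replicate 1 or 2, TET2 KO shControl replicate 1 and TET2 KO shMBD6 replicate 2 (0.0511 to 0.104).

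Relative to the mitochondrial total, 16 genes differed. The difference was positive for MT-CYB (2.24), MT-TS1 (2.04), MT-CO3 (1.76), MT-ND5 (0.71) and MT-CO1 (0.61). It was negative for MT-TV (-4.64), MT-ATP8 (-2.20), MT-ND4L (-2.13), MT-RNR2 (-2.11), MT-RNR1 (-1.94), MT-CO2 (-1.77), MT-ND2 (-1.70), MT-ATP6 (-1.59), MT-ND4 (-1.08), MT-ND6 (-0.86) and MT-ND1 (-0.68). MT-TV lost the call without any 1 of 10 libraries, that is, all but TET2 WT shControl replicate 1 and TET2 KO shMBD6 replicate 3 (adjusted p = 0.0548 to 0.12), and MT-TS1 without TET2 WT shControl replicate 2 (1.65, adjusted p = 0.0506).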

How the results depend on the processing

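Of 217 alternatives to the main values, 215 were scored as unchanged. These 215 include the mESC count of genes called under scaling by total gene counts, where the calls turned from lower to higher. They also include that count under the stricter filter, where calls went in both directions. Of the alternatives for single genes, lists and shares, 4583 were scored as unchanged and 154 lost the call. A further 53 gained it, 137 moved beyond the spread between replicates and 21 turned in direction. The mESC share of gene counts turned, to a ratio of 0.945 with all read records as the denominator, and the number of mESC composition shares without overlap moved between 4 and 7 of 8 when 1 library was left out (7 without siControl replicate 3). Scaling by total gene counts turned the mESC median of mitochondrial genes to 0.11, mt-Rnr1 to 0.0242, mt-Nd1 to 0.0531, mt-Nd4 to 0.0687, mt-Nd5 to 0.0552 and mt-Nd6 to 0.0134, and the medians of nuclear complex I to 0.0624, III to 0.0161, IV to 0.0664, V to 0.00115, mitochondrial ribosomal proteins to 0.0109 and biogenesis regulators to 0.0806. In K562 it turned the median of biogenesis regulators to -0.175 for TET2 KO against WT under shControl and to 0.0276 for shMBD6 in TET2 KO, and of nuclear long non-coding RNAs to -0.0326 for TET2 KO against WT under shControl. DESeq2 size factors turned biogenesis regulators to -0.0191 for TET2 KO against WT under shControl and -0.0336 in the interaction. The small differences between TET2 WT shMBD6 and shControl in the tRNA share ran from -0.0523 (without TET2 WT shControl replicate 3) to 0.122 percentage points when 1 library was left out, with -0.0388 without TET2 WT shMBD6 replicate 2, and in the light-strand share from -0.151 (without TET2 WT shControl replicate 1) to 0.156, with -0.0703 without TET2 WT shMBD6 replicate 1. In each case the scale or the samples differed by construction, and any further cause was not tested.

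In mESC, 6 genes were called lower under TMM, 8 with DESeq2 size factors and 9 by DESeq2 (0 higher). A stricter filter gave 5 lower and 4 higher of 16, and scaling by total gene counts 0 lower and 6 higher. Over all genes the share lower was 24.3% under TMM, 28.2% with DESeq2 size factors and 27.6% by DESeq2. It was 28.7% under the stricter filter, where 33.4% were higher, and 9.4% under total gene counts, where 37.1% were higher. In K562 total gene counts moved the all-gene median from -0.05 to -0.23 for TET2 KO against WT under shControl. The split of mitochondrial genes stayed at 15 higher and 0 lower, against 17.4% and 31.8% of all genes. With 1 library left out, 5 to 6 genes were called in mESC and, in K562, 13 to 16 for TET2 KO against WT under shControl, 13 to 15 and 14 to 17 for shMBD6 in TET2 WT and KO, and 18 to 20 for TET2 KO against WT under shMBD6. Same-numbered libraries did not deviate together (correlations -0.0119 to 0.062 in K562, -0.0101 to 0.0182 in mESC), so the numbers were not taken to pair samples. A replicate block gave 6 calls in mESC and 14, 16, 16 and 20 in the K562 comparisons. In that fit 25.4% of all mESC genes were higher and 24.2% lower. In the K562 comparisons, in the same order, these shares were 23.7% and 21.9%, 17.8% and 25.1%, 16.0% and 20.9%, and 30.3% and 28.6%. For the fits that left out 1 library no share of all genes is given. Depth limits the tRNA genes and the mouse genes copied to chromosome 1. Levels of rRNA genes are after depletion, and no amount per cell can be derived.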

Other observations

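Of 8 regulators of mitochondrial biogenesis tested in K562, 2 were higher and 3 lower in TET2 KO against WT under shControl (median log2 change 0.0020), 0 and 5 with shMBD6 in TET2 WT (-0.16), 2 and 3 in the libraries labelled TET2 KO shMBD6 against TET2 KO shControl (-0.10) and 5 and 2 in TET2 KO against WT under shMBD6 (0.16), by the edgeR test. Over all genes 23.5% were higher and 22.3% lower, 17.7% and 24.7%, 15.7% and 20.6%, and 30.1% and 28.5% in these comparisons. In mESC 1 was higher and 5 lower in siNsun2 (-0.10), with 25.8% and 24.3% of all genes. The 4 nuclear long non-coding RNAs listed, which stay on chromatin, were all lower in siNsun2 (median -0.25). All 4 were also lower in the libraries labelled TET2 KO shMBD6 against TET2 KO shControl (-0.33). In TET2 KO against WT, 3 were higher and 0 lower under shControl (0.14), and 1 was higher and 3 lower under shMBD6 (-0.17). With shMBD6 in TET2 WT, 3 were higher and 1 lower (0.08). Scaled by total gene counts, the numbers higher and lower were 0 and 2 in siNsun2, and 0 and 4 in the labelled libraries. They were then 0 and 1 in TET2 KO against WT under shControl and 0 and 3 under shMBD6. With shMBD6 in TET2 WT they were 3 and 0. Under that scaling the list median was -0.07 in siNsun2, against 0.32 over all genes. It was -0.20 against 0.04 in the labelled libraries. In TET2 KO against WT it was -0.03 against -0.23 under shControl and -0.32 against -0.18 under shMBD6. With shMBD6 in TET2 WT it was 0.18 against 0.19. Shares of all genes called on that scale are given above only for siNsun2 and for TET2 KO against WT under shControl.

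Markers of other cell types were low in K562, with 2 of 7 lymphocyte and 2 of 7 monocyte or granulocyte markers averaging at least 1 CPM. Their sums in TET2 WT shControl were 2.73 to 3.59 and 2.99 to 3.32 CPM. For 6 fibroblast or epithelial markers the sum was 66.9 to 71.2 CPM in TET2 WT shControl, 98.8 to 104.7 with shMBD6 in TET2 WT, 94.8 to 101.1 in TET2 KO shControl and 88.2 to 93.1 in the libraries labelled TET2 KO shMBD6, and its part in the results was not tested. In mESC, 9 markers of differentiated lineages summed to 17.6 to 18.2 CPM in siControl and 13.2 to 14.4 in siNsun2.

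A single further mESC library, labelled Pspc1 WT replicate 3, entered no comparison. It held 89150 mitochondrial counts of 91990658 gene counts, a share of 0.0969% (95% Wilson interval 0.0963% to 0.0976%, counting error only), compared with 1.17% to 1.21% in siControl. Of its mitochondrial counts, rRNA genes took 32.7%, protein genes 66.8% and tRNA genes 0.442%, with complex IV genes at 36.9% and complex I genes at 19.7%. The rRNA share of the siControl libraries was 83.4% to 83.6%. Culture, fractionation and depletion of the 2 experiments cannot be told apart.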
